A study of Mus musculus with 7 samples.

Results

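Complexes II to V of the mitochondrial respiratory chain are described here through 57 nuclear genes, of 12393 genes measured, in the soleus of mice labelled as knockout for Yin Yang 1 (Yy1) and of wild type mice. The genes were taken by name: those whose symbol in the array annotation begins with Sdha to Sdhd, Uqcr, Cyc1, Cycs, Cox4 to Cox8, Cox10 to Cox20, Surf1 or Atp5. Of these, 7 belong to complex II, 10 to complex III and cytochrome c, 16 to the subunits and 7 to the assembly factors of complex IV, and 17 to complex V. The soleus is a postural muscle of the hindlimb, rich in slow fibres and mitochondria. Soleus RNA was read on 3 wild type and 4 knockout arrays, from mice aged 6 months on a mixed background of C57Bl/6 and 129. The labels used here name neither the allele nor the cells in which Yy1 was removed. Symbols are those of the RefSeq gene table used, which keeps older names for subunits of ATP synthase.

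The respiratory chain passes electrons from fuels to oxygen and pumps protons, and ATP synthase uses the proton gradient to make ATP. Complex II oxidises succinate and hands electrons to ubiquinone, complex III passes them to cytochrome c, and complex IV passes them to oxygen. Complex V is ATP synthase, with a catalytic F1 head, stalks and a membrane ring of c subunits. Complex II is encoded wholly in the nucleus, while complexes III, IV and V join nuclear subunits with ones encoded in mitochondrial DNA, which are not described here.

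Values are log2(intensity + 1) of 1 probe set for each gene, the brightest over the 7 arrays, and a log2 fold change is the knockout mean minus the wild type mean. Array medians lay between 139.1 and 143.2 on the intensity scale. Yy1, which encodes a zinc finger transcription factor, measured 9.32, 9.20 and 9.62 in wild type arrays 1 to 3 and 8.39, 8.24, 8.48 and 8.29 in knockout arrays 1 to 4. The groups did not overlap, and Yy1 was at 49.2% of wild type (log2 fold change -1.02 with SE 0.10, adjusted p = 0.000213). Its other 3 probe sets had log2 fold changes of -1.70, -0.77 and -0.06, and the dimmest, at -0.06, did not pass. The lowest value of any of 12 muscle fibre markers on any array was 14.20, and 3 of the 12 were lower and 6 higher in knockout. The lower ones were Myh2, Mb and Ckm, and the higher ones Myh7, Tnni1, Tnnt1, Tnnc1, Actn2 and Des. In bulk RNA, fewer cells of a type and less RNA in each cell cannot be told apart. Of 17 macrophage markers, all 17 were higher in knockout, with summed intensities of 4597 to 5459 in wild type and 10794 to 16712 in knockout. Of 16 endothelial markers, 14 were lower and none higher, with sums of 8873 to 9309 in wild type and 4683 to 5267 in knockout. Of 10 markers of regenerating fibres, 9 were higher and none lower, with sums of 3790 to 4274 in wild type and 19619 to 35007 in knockout. Of 14 fibroblast markers, 9 were higher and none lower, and of 8 adipocyte markers, 4 were lower and 1 higher. Among 10 smooth muscle and pericyte markers, 4 were lower and 2 higher, with Des counted both here and among the muscle fibre markers. Among 5 Schwann cell and nerve markers 1 was lower, among 5 blood markers 2 were lower, and none of either was higher. Over all genes, 16% were lower and 17.0% higher. The lower Schwann cell and nerve count and the higher smooth muscle and pericyte count are near these shares. No marker of these lists was at 0 on any array, and the part of these cells in the results below was not tested.

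Knockout soleus had lower transcripts for many parts of these complexes, and the largest fall, in Cox7a1, left 50.4% of the wild type signal. Of the 57 genes, 29 were lower, 2 were higher and 26 did not pass (limma, adjusted p below 0.05). Over all genes tested, 16% were called lower and 17.0% higher. The median log2 fold change was -0.16 for the 57 genes and 0.01 for all genes, and the range among the 57 ran from -0.99 in Cox7a1 to 0.38 in Surf1. In 50 of the 57 the knockout mean lay below the wild type mean. The 4 knockout values all lay below the 3 wild type values in 42 genes and all above them in 2; over all genes, 19.1% lay wholly below and 20.5% wholly above. Most of these genes are bright on the array: 38 of the 57 had a mean above 13 log2 units, and 22 of those 38 were lower and none higher. Among all 288 genes above 13, 33.0% were lower and 21.2% higher.

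**Figure D1:**
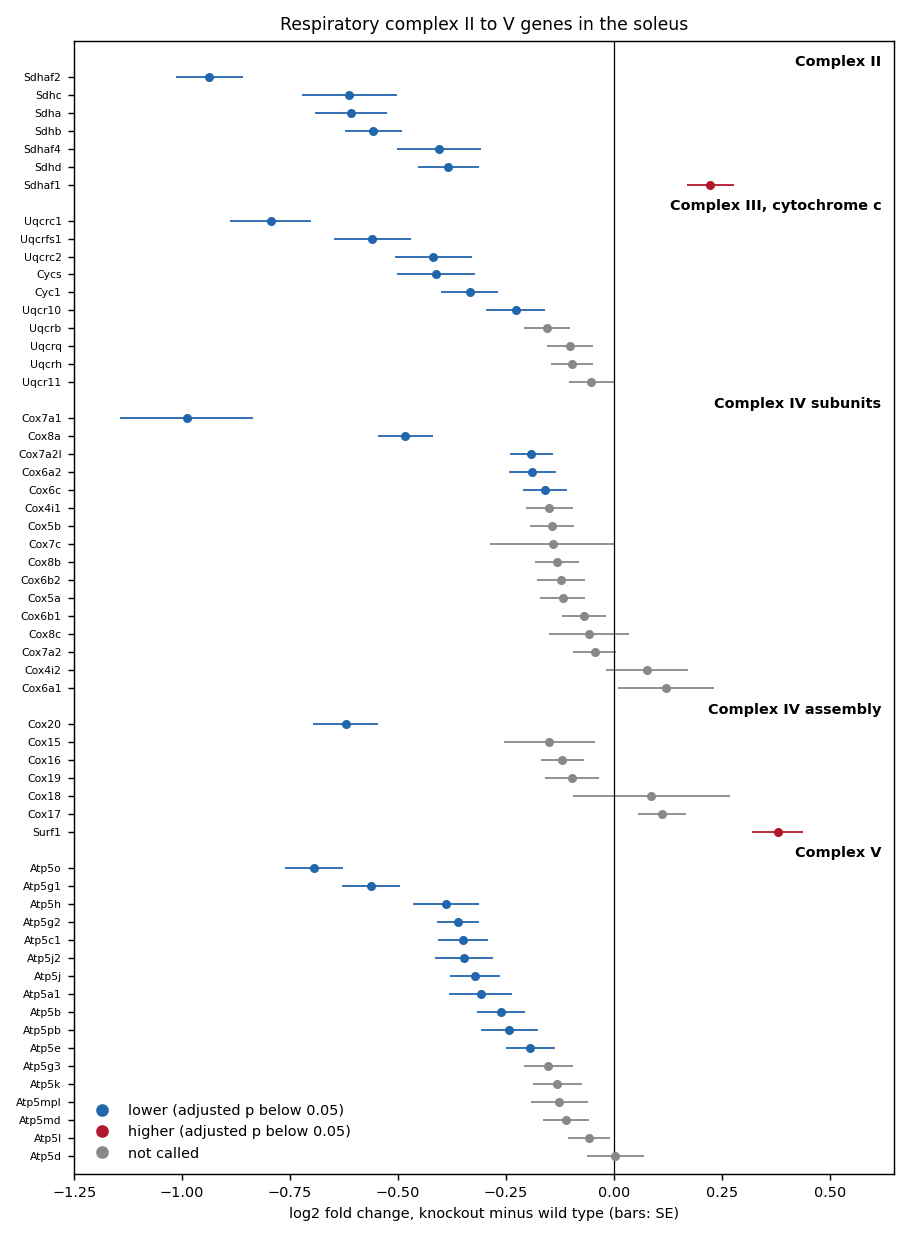
Log2 fold change (x axis, knockout minus wild type) of each of the 57 genes, with bars of 1 SE, grouped by complex and coloured by call. Left of 0 lie complex II except Sdhaf1, all 10 genes of complex III and cytochrome c, and 16 of 17 of complex V. So do 14 of 16 complex IV subunits, most of them close to 0. Only Sdhaf1 and Surf1 are called higher.

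The complexes had different medians. The median log2 fold change was -0.56 in complex II, -0.28 in complex III with cytochrome c, -0.26 in complex V, -0.14 in complex IV subunits and -0.10 in complex IV assembly factors. In every knockout array the complex II median was the lowest of these medians, from -0.67 to -0.34 relative to the wild type mean, and the 2 complex IV groups were the nearest to 0, from -0.16 to -0.08 for subunits and from -0.11 to -0.02 for assembly factors. These differences between complexes are a description and were not tested. They rest on the brightest probe set of each gene. Of the 45 other probe sets of the 57 genes, 23 changed by a more negative amount than the brightest, a near even split. Among these 23 were ones of Cox5a, Cox5b and Cox6a1. The complex IV subunits also include Cox4i2, Cox6b2 and Cox7c, which lie below the median level of all genes. The knockout arrays also held similar places from gene to gene. Among the 29 lower genes, knockout array 1 held the highest of the knockout values in 25 and knockout array 2 the lowest in 22.

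**Figure D2:**
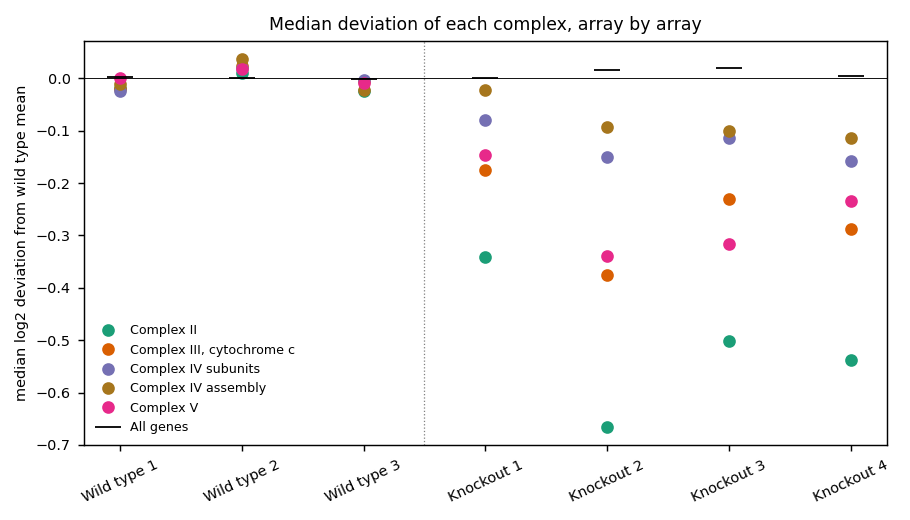
Median log2 deviation from the wild type mean (y axis) of the genes of each complex, by their brightest probe sets, in each of the 7 arrays (x axis). The median over all genes is a black bar. Complex II lies lowest in all 4 knockout arrays and complex IV nearest to 0, while the median of all genes in the knockout arrays lies between 0.00 and 0.02.

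**Figure D3:**
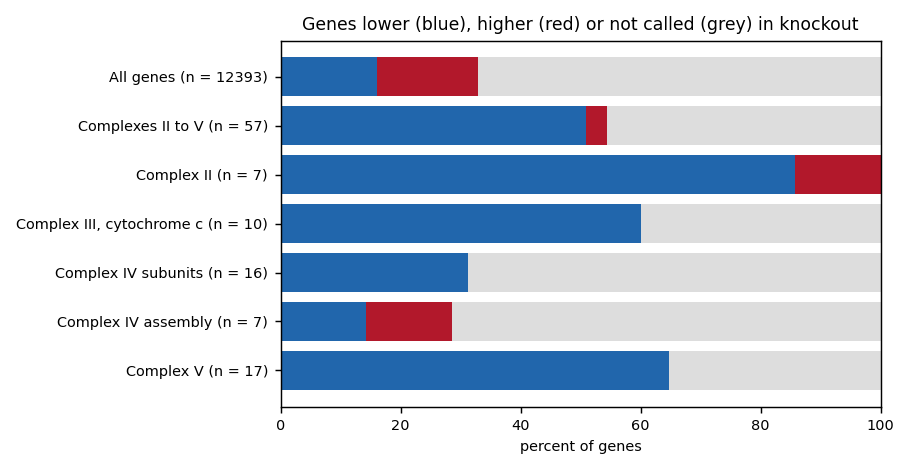
Percent of genes (x axis) called lower, higher or not called in knockout, for all genes tested, for the 57 genes and for each complex. Complex II has calls in all 7 genes. Complex IV assembly has the smallest share of lower genes among the complexes, 1 of 7, near the 16% of all genes.

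Since many of these genes moved together, the bases before the start sites of several lower ones are shown. They come from the RefSeq promoter table on build GRCm38.p6, which held 43 of the 57 genes. Each run is the 120 bases just before the start, read 5′ to 3′ on the strand of the gene, with matches to any of 4 motifs in capitals. The motifs, searched on both strands, were AANATGG for YY1, CCGGAAG for GABP and other ETS factors, AAGGTCA for ERR receptors, and a motif of NRF1. The first 5 genes are those with 1 listed promoter, a lower call, and in this window a YY1 match or at least 2 matches, and Cox7a1 is shown as the gene with the largest fall.
Sdhaf2, chr19:10525210-10525329, minus strand: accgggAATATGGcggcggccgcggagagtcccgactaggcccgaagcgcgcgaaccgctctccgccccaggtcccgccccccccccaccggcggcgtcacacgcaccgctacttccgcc
Sdha, chr13:74350241-74350360, minus strand: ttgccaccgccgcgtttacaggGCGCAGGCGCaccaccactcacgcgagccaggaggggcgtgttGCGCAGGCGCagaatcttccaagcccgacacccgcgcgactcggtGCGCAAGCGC
Sdhd, chr9:50603850-50603969, minus strand: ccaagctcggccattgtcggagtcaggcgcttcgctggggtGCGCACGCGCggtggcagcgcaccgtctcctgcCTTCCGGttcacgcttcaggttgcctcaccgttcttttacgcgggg
Cox20, chr1:178319033-178319152, plus strand: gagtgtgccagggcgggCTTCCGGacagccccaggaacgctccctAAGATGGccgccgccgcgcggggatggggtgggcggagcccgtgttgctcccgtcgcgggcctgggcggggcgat
Atp5pb, chr3:105959264-105959383, minus strand: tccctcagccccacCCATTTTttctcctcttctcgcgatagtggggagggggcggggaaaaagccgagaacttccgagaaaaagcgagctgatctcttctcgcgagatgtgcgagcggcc
Cox7a1, chr7:30184051-30184170, plus strand: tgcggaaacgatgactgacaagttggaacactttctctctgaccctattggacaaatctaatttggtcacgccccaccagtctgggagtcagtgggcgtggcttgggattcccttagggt
Sdhaf2, Cox20 and Atp5pb each hold 1 YY1 match in these bases, starting 114, 75 and 106 bases before the start. Sdha holds 3 NRF1 matches, Sdhd 1 NRF1 and 1 ETS match, and Cox20 also 1 ETS match. The Cox7a1 window has no match to the 4 motifs, and no matches overlap in these windows.

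Over the whole table window, 250 bases before to 50 after each start, the YY1 letters were found in 10 of the 43 genes (23.3%), against 18.2% of all 27025 genes of the table and 17.2% of those measured on the arrays. By call, they were in 7 of 23 lower genes and 3 of 18 genes that did not pass. ETS letters stood in 19 of 43 (44.2%, against 9.93% of all genes and 16.4% of measured ones), in 8 of the 23 lower genes and 9 of the 18 that did not pass. The NRF1 motif stood in 11 of 43 (25.6%, against 5.19% and 9.36%), in 8 of the 23 and 3 of the 18. ERR letters stood in 5 of 43 (11.6%, against 5.38% and 4.35%), in 2 of the 23 and 3 of the 18. In both Surf1 and Sdhaf1, the called higher genes, an ETS match was the only match. Several of these matches lie after the start, among them those of Surf1 and Sdhaf1, and no share was counted for the bases before it alone. A match of letters is a description, not a measured binding site.

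All 4 subunits of complex II fell, and so did 2 of its 3 assembly factors, against 16% of all genes lower and 17.0% higher. Sdha, the flavoprotein that oxidises succinate, measured 13.66, 13.72 and 13.80 in the wild type arrays and 13.31, 13.01, 13.02 and 13.12 in the knockout arrays, so the change was -0.61 (SE 0.08, adjusted p = 0.000819). Sdhb, the iron-sulfur subunit, measured 14.58, 14.59 and 14.59 against 14.15, 13.92, 14.09 and 13.97, a change of -0.56 (SE 0.07, adjusted p = 0.000416). The groups were separate in both genes, and knockout array 1 held the highest knockout value in each. Sdhc, which anchors the enzyme in the membrane, measured 12.47, 12.47 and 12.53 against 12.15, 11.69, 11.71 and 11.95, a change of -0.61 (SE 0.11, adjusted p = 0.00311). Its partner anchor Sdhd changed by -0.38 (SE 0.07, adjusted p = 0.00354). The knockout values of Sdhc spread more widely than those of the other subunits, with arrays 2 and 3 lowest. Each other probe set of Sdha, Sdhc and Sdhd was called lower too (-0.46, -0.62 and -0.51).

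The assembly factors of complex II went in both directions. Sdhaf2, which places the flavin cofactor on Sdha, measured 10.81, 10.94 and 10.78 in wild type and 10.01, 9.75, 9.98 and 9.87 in knockout. This is 52.2% of wild type (log2 fold change -0.94, SE 0.08, adjusted p = 9.51e-05), and a second probe set changed by -0.98. Sdhaf4, which binds flavinated Sdha before Sdhb joins, measured 12.71, 12.67 and 12.59 against 12.46, 12.04, 12.32 and 12.20, a change of -0.40 (SE 0.10, adjusted p = 0.0127). Without wild type array 1 its adjusted p was 0.0509. Sdhaf1, which helps iron-sulfur clusters reach Sdhb, rose. It measured 9.60, 9.60 and 9.57 in wild type and 9.88, 9.77, 9.76 and 9.85 in knockout, a change of 0.22 (SE 0.05, adjusted p = 0.014), with every knockout value above every wild type value.

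In complex III the 4 core and redox subunits fell. Of the 5 small subunits 1 did, which is 20.0%. That share is near the 16% of all genes and below the 33.0% of all 288 genes above 13 log2 units. The contrast between these groups of subunits was not tested. Uqcrc1, a core protein facing the matrix, measured 13.94, 13.97 and 13.97 in wild type and 13.42, 13.02, 13.17 and 13.06 in knockout, at 57.6% of wild type (log2 fold change -0.80, SE 0.09, adjusted p = 0.000406). The other core protein gene, Uqcrc2, changed by -0.42 (SE 0.09, adjusted p = 0.00715). Uqcrfs1, of the Rieske iron-sulfur protein, measured 14.16, 14.15 and 14.15 against 13.78, 13.37, 13.64 and 13.58, a change of -0.56 (SE 0.09, adjusted p = 0.00178). The wild type values of Uqcrfs1 were nearly the same, and its knockout values were lowest in array 2. Cyc1, of cytochrome c1, which hands electrons to cytochrome c, changed by -0.33 (SE 0.07, adjusted p = 0.00514). Cycs, the mobile carrier cytochrome c itself, measured 14.58, 14.71 and 14.60 against 14.35, 14.01, 14.19 and 14.33, a change of -0.41 (SE 0.09, adjusted p = 0.00834). Its 2 dimmer probe sets were also called lower, at -0.43 and -0.71.

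The small subunits of complex III lay closer to wild type. Uqcr10, which lies beside cytochrome c1, changed by -0.23 (SE 0.07, adjusted p = 0.0336). Leaving out any of wild type arrays 1, 2 and 3 or knockout arrays 2 and 4 ended that call (adjusted p from 0.0664 to 0.0889), as did quantile normalization (0.0721), averaged probe sets (0.0579) and the probe set of largest variance (0.137). The other 4 did not pass: the ubiquinone-binding subunit Uqcrb at -0.15 (SE 0.05, adjusted p = 0.0548), Uqcrq at -0.10 (13.88, 13.97 and 13.91 in wild type, 13.88, 13.77, 13.82 and 13.79 in knockout, overlapping), the hinge protein Uqcrh at -0.10 and Uqcr11 at -0.05, with adjusted p up to 0.489. Uqcrb depends on the probe set. Its brightest, at 15.12, 15.17 and 15.14 in wild type and 15.03, 14.92, 14.98 and 15.02 in knockout, is near the top of the scale, where the highest value on any array was 15.63. Its second probe set changed by -0.56 (adjusted p = 0.00286 over all probe sets).

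Of the 16 complex IV subunits, 5 fell, none rose and 11 did not pass. The lower share, 31.25%, is near the 33.0% among all 288 genes above 13 log2 units. It compares with 16% of all genes, and the median level of these subunits was 13.96. Their levels ran from 5.85 to 15.13, and the lower genes Cox8a and Cox7a2l lie below 13. The bright genes are thus only a rough comparison. Cox7a1, the heart and muscle form of subunit 7a, had the largest fall of all 57 genes. It measured 13.97, 14.10 and 14.08 in wild type and 13.44, 12.67, 13.11 and 13.03 in knockout, at 50.4% of wild type (log2 fold change -0.99, SE 0.15, adjusted p = 0.00156). The groups were far apart, and knockout array 2 lay lowest and array 1 highest. Cox8a, the ubiquitous form of subunit 8, measured 11.49, 11.58 and 11.49 against 11.01, 10.98, 11.16 and 10.98, a change of -0.48 (SE 0.06, adjusted p = 0.000667). Its second probe set changed by -0.46, and a much dimmer one, at -0.20, did not pass.

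The other 3 falls in complex IV were small. Cox7a2l, a relative of subunit 7a that joins complexes III and IV into supercomplexes, measured 11.90, 11.94 and 11.92 against 11.72, 11.73, 11.69 and 11.77, a change of -0.19 (SE 0.05, adjusted p = 0.0188). Cox6a2, the form of subunit 6a made in heart and skeletal muscle, measured 14.83, 14.81 and 14.80 against 14.67, 14.67, 14.63 and 14.54, a change of -0.19 (SE 0.05, adjusted p = 0.0293). Cox6c changed by -0.16 (SE 0.05, adjusted p = 0.0438). These 3 calls ended when certain single arrays were left out. For Cox7a2l, leaving out wild type array 2 gave an adjusted p of 0.0605. For Cox6a2, leaving out wild type array 1, 2 or 3 or knockout array 3 or 4 gave 0.0516 to 0.0825. For Cox6c, leaving out any array but knockout array 1 gave 0.0714 to 0.112, and centred arrays gave 0.065, quantile normalization 0.104 and the probe set of largest variance 0.061. The number of lower complex IV subunits was accordingly 2 without wild type array 2, 3 without wild type array 1 or 3 or knockout array 3 or 4, 4 without knockout array 2 and 7 without knockout array 1. It was 8 with a pseudocount of 16 or with a prior variance that follows the level.

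The remaining complex IV subunits are given as values. Cox4i1, of the large nuclear subunit 4, had a log2 fold change of -0.15 (adjusted p = 0.0654), Cox5b of -0.14 (0.0654), the muscle form Cox8b of -0.13 (0.0841) and Cox5a of -0.12 (0.123). In each of these 4 genes all knockout values lay below all wild type values. The same held in 11 of the 16 complex IV subunits. It held in 19.1% of all genes and in 121 of the 288 genes above 13 log2 units. Cox5a and Cox5b again differ by probe set: the 2 dimmer Cox5a probe sets were called lower at -0.32 and -0.30, and 2 of the 6 Cox5b probe sets at -0.30 and -0.21. The brightest Cox5b probe set measured 15.20, 15.22 and 15.22 in wild type and 15.13, 15.03, 15.08 and 15.04 in knockout. Cox6b1, at -0.07, and Cox7a2, the ubiquitous form of subunit 7a, at -0.04, did not pass. Cox7a2 measured 14.42, 14.47 and 14.47 against 14.44, 14.38, 14.39 and 14.44, with overlap. Cox6a1, the ubiquitous form of subunit 6a, measured 12.68, 12.77 and 12.74 in wild type and 12.79, 12.78, 13.17 and 12.67 in knockout, a difference of 0.12 (SE 0.11, adjusted p = 0.454), and only knockout array 3 stood apart. Its second probe set was called lower, at -0.43 (adjusted p = 0.0132), so the direction for Cox6a1 is not settled by these arrays.

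A few complex IV genes gave little signal. Cox4i2, the form of subunit 4 known from lung and hypoxia, measured 6.53, 6.53 and 6.15 against 6.47, 6.47, 6.50 and 6.49. Cox6b2, a form known from testis, measured 5.87, 5.93 and 5.97 against 5.77, 5.85, 5.85 and 5.74. Both lay below 7.66, the median of all genes, and neither passed (0.08 and -0.12). The testis form Cox8c, at a log2 fold change of -0.06, and Cox7c, at -0.14, did not pass. Cox7c read 6.59, 6.69 and 6.49 in wild type and 6.59, 6.02, 6.59 and 6.59 in knockout, the same value to the last digit in 4 of the 7 arrays, and its other probe set was dimmer still. No detection call was used, so these low values were not tested against background.

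Of the 7 assembly factors of complex IV, 1 was lower and 1 higher, 14.3% each. These shares are near the 16% lower and 17.0% higher of all genes. Cox20, a chaperone of a mitochondrially encoded subunit, measured 10.85, 10.95 and 10.93 in wild type and 10.46, 10.26, 10.28 and 10.16 in knockout, a change of -0.62 (SE 0.08, adjusted p = 0.000457). Surf1, an early assembly factor mutated in human Leigh syndrome, measured 10.48, 10.55 and 10.59 against 10.91, 11.02, 10.87 and 10.88, a change of 0.38 (SE 0.06, adjusted p = 0.00155). Every knockout value lay outside the wild type range in both genes, below it for Cox20 and above it for Surf1. The 5 others did not pass: Cox15, of heme A synthesis, at -0.15, Cox16 at -0.12, Cox19 at -0.10, the insertase Cox18 at 0.09 and the copper chaperone Cox17 at 0.11. Their adjusted p lay between 0.107 and 0.746. For Cox18 the values of both groups spread over similar ranges, 9.66, 9.19 and 9.05 in wild type and 9.62, 9.64, 9.20 and 9.10 in knockout.

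In ATP synthase, 11 of 17 genes fell (64.7%, against 33.0% of all genes above 13 log2 units) and none rose. The falls ran through head, peripheral stalk and ring. The largest was in Atp5o, of the stalk protein that joins the peripheral stalk to the head. It measured 14.37, 14.48 and 14.45 in wild type and 13.86, 13.64, 13.76 and 13.68 in knockout, at 61.8% of wild type (log2 fold change -0.70, SE 0.07, adjusted p = 0.00018). A second, dimmer probe set of Atp5o changed by -1.20. All 4 genes of the peripheral stalk fell. Atp5h changed by -0.39 (SE 0.08, adjusted p = 0.00506), Atp5j, of coupling factor F6, by -0.32 (SE 0.06, adjusted p = 0.00319), and Atp5pb, of subunit b, by -0.24 (SE 0.07, adjusted p = 0.0223). Leaving out wild type array 1 or 2 or knockout array 2 or 3 ended the Atp5pb call (adjusted p from 0.0513 to 0.0747).

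Of the 5 genes of the F1 head, counted here with its central stalk, 4 fell, against 33.0% of all genes above 13 log2 units. Atp5a1 and Atp5b, of the alpha and beta subunits that form the catalytic sites, changed by -0.31 (SE 0.07, adjusted p = 0.0118) and -0.26 (SE 0.06, adjusted p = 0.00762). Atp5b measured 14.75, 14.86 and 14.78 in wild type and 14.58, 14.47, 14.53 and 14.56 in knockout, with no overlap. Atp5c1, of the rotating gamma subunit, measured 14.73, 14.79 and 14.74 against 14.50, 14.35, 14.42 and 14.35, a change of -0.35 (SE 0.06, adjusted p = 0.00214). Atp5e, of the epsilon subunit, changed by -0.19 (SE 0.06, adjusted p = 0.0302), a call lost without any array except knockout array 1 (adjusted p = 0.0569 to 0.0888) and with quantile normalization (0.0899). Atp5d, of the delta subunit, measured 14.04, 14.09 and 14.07 against 14.10, 14.12, 14.14 and 13.92, a difference of 0.00 (adjusted p = 0.975), and its groups overlapped.

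The c ring is built from 1 protein that 3 genes encode with different import sequences. Atp5g1 measured 14.43, 14.50 and 14.44 in wild type and 13.98, 13.78, 13.98 and 13.84 in knockout, a change of -0.56 (SE 0.07, adjusted p = 0.000443). Atp5g2 measured 13.25, 13.24 and 13.24 against 12.91, 12.85, 12.86 and 12.91, a change of -0.36 (SE 0.05, adjusted p = 0.000776). Atp5g3 measured 14.91, 14.93 and 14.85 against 14.78, 14.69, 14.81 and 14.70, a difference of -0.15 (SE 0.06, adjusted p = 0.07), which did not pass although the groups were separate. Among the small membrane subunits, Atp5j2, of subunit f, changed by -0.35 (SE 0.07, adjusted p = 0.00466). The other 4, Atp5k, Atp5l, Atp5md and Atp5mpl, lay between -0.13 and -0.06 and did not pass. A second probe set of Atp5k was called lower at -0.35.

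Where a subunit is encoded by more than 1 gene, the changes of the forms were set against each other in 9 pairs, as the difference of their log2 fold changes with an exact permutation test over the 35 ways of dividing the arrays (two-sided, smallest p 0.0286). With this floor a pair can pass after adjustment over the 9 pairs only where at least 6 pairs reach the smallest p, so the adjusted test could hardly pass. No pair did: 4 pairs reached the smallest p, and 8 pairs had an adjusted p of 0.0643. Cox7a1 minus Cox7a2 was -0.95 (SE 0.18, exact permutation p = 0.0286), and the 4 knockout arrays lay between -1.31 and -0.59 relative to the wild type mean. Against Cox7a2l the difference was -0.80 (SE 0.20, exact permutation p = 0.0571). Cox8a, the ubiquitous form, minus its muscle form Cox8b was -0.35 (SE 0.07, exact permutation p = 0.0571), with Cox8b at 14.84, 14.80 and 14.78 in wild type and 14.74, 14.66, 14.65 and 14.66 in knockout. For subunit 6a, Cox6a1 minus Cox6a2 was 0.31 (SE 0.13, exact permutation p = 0.0286), but the second Cox6a1 probe set, at -0.43, lies below Cox6a2, at -0.19, so the order of this pair depends on the probe set. In the c ring, Atp5g1 minus Atp5g3 was -0.41 (SE 0.03, exact permutation p = 0.0286), Atp5g1 minus Atp5g2 -0.20 (SE 0.06, exact permutation p = 0.0571) and Atp5g2 minus Atp5g3 -0.21 (SE 0.04, exact permutation p = 0.0286). The pairs Cox4i1 minus Cox4i2, at -0.23 (SE 0.12, exact permutation p = 0.0571), and Cox6b1 minus Cox6b2, at 0.05 (SE 0.06, exact permutation p = 0.371), each include a dim gene. Cox8b, Cox7a2 and Atp5g3 had higher mean levels (14.73, 14.43 and 14.81) than Cox8a, Cox7a1 and Atp5g1 (11.24, 13.49 and 14.14), and changed less. Cox7a2l and Atp5g2 (11.81 and 13.04) had lower levels than Cox7a1 and Atp5g1, and also changed less. Whether signals near the top of the scale show smaller changes was not tested.

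**Figure D4:**
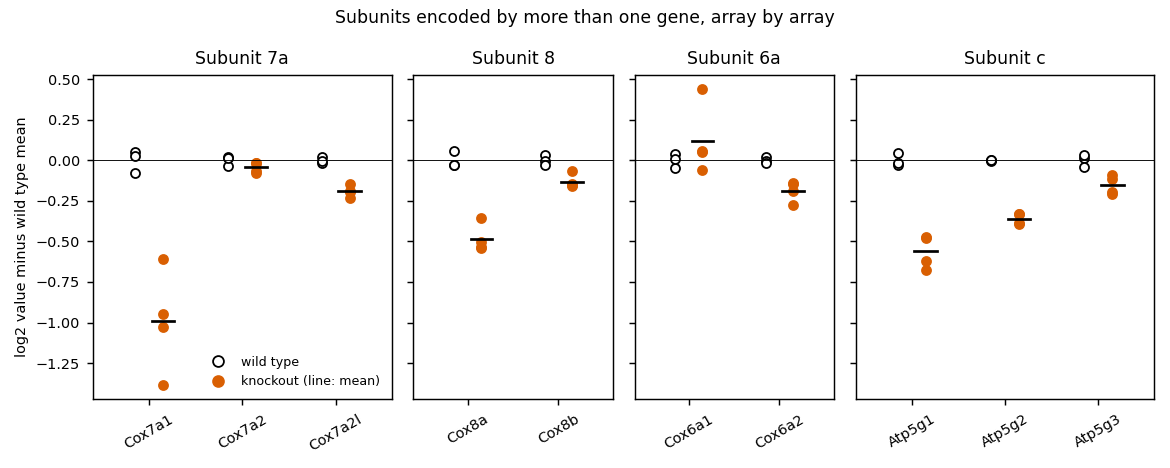
Log2 value minus the wild type mean (y axis) of each array for the genes of subunits 7a, 8, 6a and c, wild type as open and knockout as filled points, with the knockout mean as a line. Cox7a1 spreads from -0.61 to -1.38 in knockout, while Cox7a2 stays within 0.08 of the wild type mean.

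Of the 57 genes, 30 had several probe sets. In 4 of these (Atp5d, Cox5b, Cox6a1 and Uqcrq) probe sets differed in sign, and in 10 some probe sets were called and others not. Of the 45 other probe sets, 23 were called lower and none higher when all probe sets were tested together. The share called among all 20380 probe sets is not given here; by gene, it was 16% lower and 17.0% higher. Of the 45, 23 changed by a more negative amount than the brightest one of their gene, a near even split. The choice of the brightest probe set thus bears on which complex IV and small subunit genes are called, but in none was another probe set called higher.

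**Figure D5:**
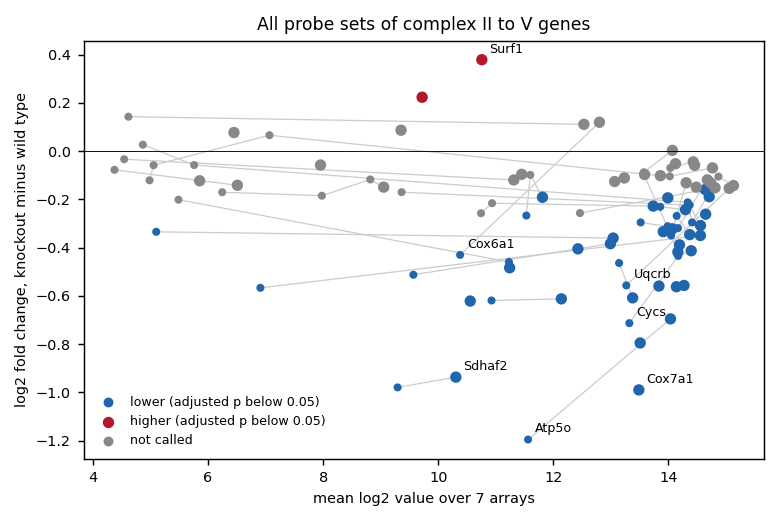
Log2 fold change (y axis) against mean log2 value over the 7 arrays (x axis) of every probe set of the 57 genes, large points for the brightest of each gene, small points for the others, joined within a gene by grey lines. Dimmer probe sets of Uqcrb, Atp5o and Cycs lie below their brightest one, and only Surf1 and Sdhaf1 lie among the called higher points; levels of different probe sets do not compare amounts of RNA.

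Other genes of the same pathway were counted beside them, and over all genes 16% were lower and 17.0% higher. Of 39 genes named Nduf, of complex I, 25 were lower and none higher (median -0.26), and of 74 genes of the mitochondrial ribosome, 43 were lower and 2 higher (median -0.27). Among 21 assembly and regulatory factors of the respiratory complexes outside the 57, 13 were lower and none higher (median -0.38). Lrpprc, which stabilises mitochondrial mRNAs, changed by -1.05 (SE 0.11, adjusted p = 0.000265), and Coa5, an assembly factor of complex IV, by -0.77 (SE 0.09, adjusted p = 0.000337). Uqcc1, an assembly factor of complex III, was picked after its values were seen, for the largest change of that list, -1.11 (SE 0.13, adjusted p = 0.000384). By their brightest probe sets, Lrpprc and Uqcc1 changed more than any of the 57 genes. Among 17 genes of the mitochondrial surface, cristae and matrix, 10 were lower and 2 higher (median -0.30), with the smallest p among the lower ones in Samm50, of outer membrane assembly, at -0.65 (SE 0.09, adjusted p = 0.000646) and Chchd3, of the cristae junction, at -0.45 (SE 0.07, adjusted p = 0.00188). Mtx1, an outer membrane import protein, rose by 0.67 (SE 0.08, adjusted p = 0.000452), and the import receptor gene Tomm22 by 0.17 (SE 0.06, adjusted p = 0.0466). Of 14 transcriptional regulators of nuclear or mitochondrial genes of the respiratory chain, 7 were lower and none higher (median -0.26). The smallest p among them were in Ppara, at -1.20 (SE 0.14, adjusted p = 0.000418), and in Tfb2m, a mitochondrial transcription factor, at -0.57 (SE 0.09, adjusted p = 0.00142).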

How the data were processed

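The authors deposited 1 linear intensity for each of 22690 probe sets and 7 arrays. RMA, a method of background correction, normalization and summary of probes, is named in the submitters' processing notes, without a version or genome build. Array number limits the precision, and no scan date was used. Control probe sets (64), probe sets with several symbols (691) and with none (1555) were left out of all tests. Of 12393 genes, 12369 had their symbol matched to RefSeq through the Entrez identifier. Per gene, the probe set with the highest mean of log2(intensity + 1) was kept, with no filter on dim genes.

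Knockout was compared with wild type with limma 3.58.1 in R 4.3.3 (lmFit, eBayes, two-sided), with Benjamini-Hochberg adjustment over 12393 genes and a threshold of 0.05. Probe sets were also tested together over 20380 probe sets. The scripts were tested on simulated data. The labels do not say that each array is a separate animal, so the p-values may reflect technical spread. At most 1819 of 22690 values were equal in any pair of arrays, so no array was a duplicate. Same-numbered arrays of the genotypes did not deviate together (correlations -0.13 to 0.03), so no pairing was used. The 57 genes, the lists and the grouping into head, stalk and ring were chosen with earlier results of these data known. Every gene of the 57 could be named; by rule, values in every array go with Yy1, up to 3 called genes of each complex and direction with the smallest p, isoform pairs and genes whose probe sets disagree in sign, and other lists give up to 2 called genes in each direction with the smallest p. Array values of further genes were added after they were seen, and the called muscle fibre markers were all named after their values were seen. Alternatives were another pseudocount, a filter on dim genes, 2 normalizations, 2 rules for probe sets, a prior variance that follows the level, the replicate number as a block, and leaving out each array.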

Additional observations from a re-analysis of the deposited data

Results flagged for a closer look

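In 3 of the 67 values examined, 1 of the 4 knockout arrays stood far from the other 3. About 1 in 20 groups is marked in this way by chance, so 3 of 67 is not unusual. Cox7c measured 6.02 in knockout array 2, below the other knockout arrays, which shared 1 value of 6.59. Cox8b measured 14.74 in knockout array 1, above the 14.65 to 14.66 of the other knockout arrays. The pair Cox6a1 minus Cox6a2 lay 0.63 above its wild type mean in knockout array 3.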

How the results depend on the processing

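Of the 31 called genes among the 57, 22 kept their direction and call under all 15 alternatives and 7 lost the call when some single array was left out. Leaving out 1 array at a time, the lower genes numbered 23 to 31 of 57, and those of complex IV subunits 2 to 7 (lowest without wild type array 2, highest without knockout array 1). Complex IV subunits gave 8 lower calls with a pseudocount of 16, 8 with a prior variance that follows the level, and 2 in the fit with replicate block. The numbers do not pair the arrays, and in that block knockout array 4 carries no information. There 8 of the called genes lost their call, Sdhaf1 with an adjusted p of 0.0838, which left 22 lower and 1 higher of the 57, and 1599 lower and 1625 higher of all genes. Cox6a1 changed sign to -0.43 when the probe set with the largest variance stood for the gene, since that probe set is another one. Cox6a1 was 1 of 9 genes without a call whose sign turned under some alternative. The counts for complexes II, III and V and for all genes stayed within 1.5 times under the alternatives run. The count of isoform pairs past the threshold, 0 in each setting run, is nearly fixed by the smallest p and says nothing about stability. With 1 array left out or with same-numbered arrays paired, the exact test cannot reach the threshold, and the pair differences moved by less than 1 SD. Filters and probe set rules were not run on the pairs.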
